A study of Chlorella vulgaris with 6 samples.

Results

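In the green alga Chlorella vulgaris, 214 abundant transcripts had values in a narrow range over both high-lipid mutants, EMS-25 and UV-715, and wild type. They were chosen by 2 limits on the deposited normalised signal of all 6 libraries: a mean of at least 300, and a highest value less than 25% above the lowest. The 214 were 1.15% of the 18600 assembled transcripts in the table and 45.5% of the 470 with a mean of at least 300. They are called narrow-range transcripts below, and the other 256 transcripts at this level wide-range ones. Since every library entered the choice, their differences between strains are described here without a test of stability.

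The study set EMS-25 (an EMS mutant) and UV-715 (a UV mutant) against wild type, all of strain SAG 211-12, with 2 libraries of each. The submitters describe UV irradiation at 254 nm and the picking of single colonies, so the UV line stands for 1 clone. Effects of the mutagenesis and of that clone cannot be told apart. EMS-25 is likewise 1 named mutant line, and the same limit holds for it. All cultures grew in Bold's Basal medium at 25 °C in continuous light and were harvested at 14 days, in stationary phase at an optical density of 5. Polyadenylated RNA was read in pairs of 75 bases. The 2 libraries of a strain are named biological replicates, but the labels do not give their cultures, so a p-value here measures the spread between libraries, which may be technical.

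In a photosynthetic cell the most abundant messenger RNAs usually encode proteins that every cell keeps making: ribosomal proteins, translation factors, light-harvesting and photosystem proteins, the small subunit of Rubisco, tubulins and histones. Transcripts of high and even level serve as reference genes in reverse-transcription PCR, and scaling methods such as the trimmed mean of M values assume that most transcripts of a library do not change. High-lipid algae store carbon as triacylglycerol, which is made by enzymes of fatty acid and glycerolipid synthesis. The files used here pair no transcript with a gene name or a sequence, so no such role is assigned to an ID, and the lists of reference, photosynthesis, lipid and bacterial genes had no members to match. The organism could likewise not be checked against marker genes. The IDs have the form that the Trinity assembler writes, which names a cluster of assembled reads (DN), a component within it (c) and a gene within the component (g).

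Depth differed between the replicates of a strain. It was read from the lowest values, which step by what 1 fragment is worth. Relative to wild type replicate 1, replicates 1 and 2 had a depth of 0.986 and 0.397 for EMS-25, 1.04 and 0.493 for UV-715, against 1 and 0.243 for wild type. The absolute depth is unknown. Sums of signal per library lay between 970974 and 1029717. No narrow-range or wide-range transcript was listed at 0 in any library, while 1376 to 4177 of all transcripts were.

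The narrow-range transcripts held almost the same share of the summed signal in the 3 strains, which the rule itself largely brings about. It limits how far each value can differ between libraries, and the library sums lay close together. The shares are therefore a description. The share of the narrow-range transcripts was 30.5% and 30.9% in the EMS-25 libraries, 30.8% and 31.1% in those of UV-715, against 30.5% and 30.7% in wild type. The strain means were 30.7% ± 0.29 in EMS-25, 30.9% ± 0.28 in UV-715, against 30.6% ± 0.17 in wild type (SD, n = 2 each). The range of EMS-25 overlapped with those of UV-715 and wild type, while both UV-715 libraries lay narrowly above both of wild type. The 10 highest narrow-range transcripts carried 20.7% of this share. All 470 transcripts with a mean of at least 300 together held 49.6% to 51.0% of the signal of a library.

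Of the 10 transcripts with the highest mean 7 were narrow-range, and of the 50 highest 40 were. The means of the narrow-range transcripts ran from 300.3 to 12609, with a median of 777 and quartiles of 415 and 2191. The wide-range transcripts had a median of 535, with quartiles of 389 and 768. The most frequent value above 0 was shared by only 23 to 33 transcripts of a library, whereas CPM, which has no length correction, would give all transcripts of 1 fragment the same value. The values are therefore taken as TPM, which is corrected for length, and levels of different transcripts are set side by side on that reading; transcript lengths were not used here.

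**Figure D1:**
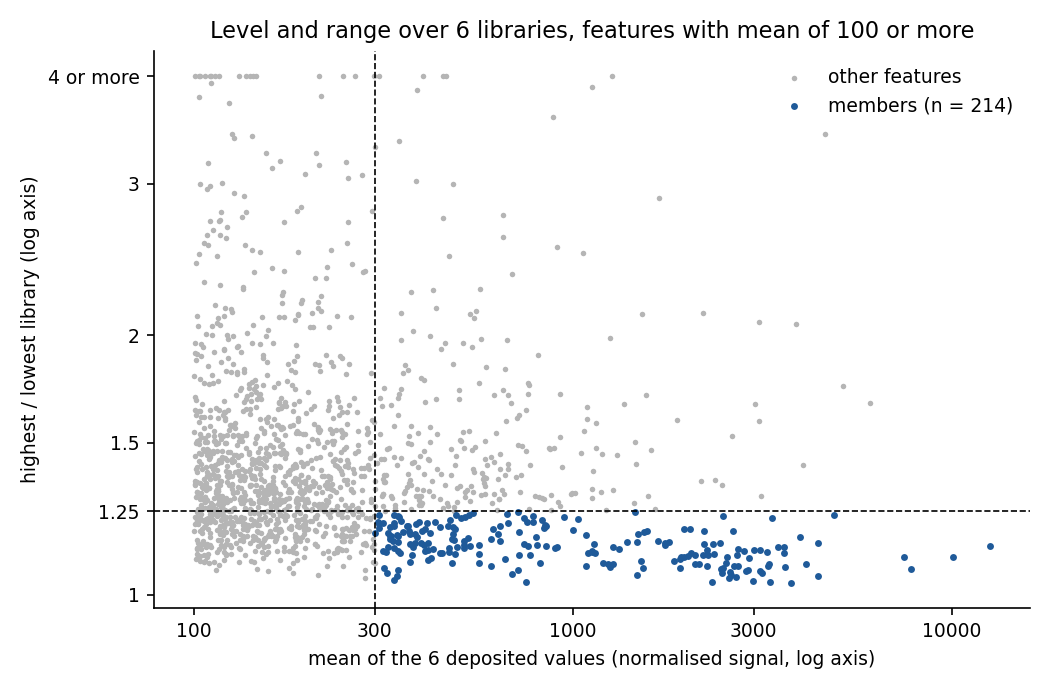
Mean of the 6 deposited values (x, log axis) against the highest over the lowest library (y, log axis) for transcripts with a mean of 100 or more. Dashed lines are the limits of the rule, blue points (members) the 214 narrow-range transcripts and grey points all others, with ratios of 4 or more drawn at the top. The 4 transcripts with the highest means lie below the ratio limit.

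The 3 transcripts with the highest mean of the whole table were all narrow-range. TRINITY_DN9721_c0_g1 had 12849 and 11913 in EMS-25, 12802 and 12047 in UV-715, against 13570 and 12474 in wild type. Replicate 1 stood above replicate 2 in every strain, by more than the strain means stood apart, and all 3 strains overlapped. TRINITY_DN2420_c0_g1 had 9831 and 9821 in EMS-25, 10702 and 10710 in UV-715, against 9848 and 9674 in wild type. Its replicates lay close together, and both UV-715 libraries were above the other 4. TRINITY_DN6992_c0_g1 had 7458 and 7797 in EMS-25, 7713 and 7949 in UV-715, against 7967 and 7978 in wild type. Both wild-type libraries were above the other 4, by a margin smaller than the gap between the replicates of either mutant.

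In the 3 transcripts of narrowest range the highest value was 1.03 times the lowest. TRINITY_DN6843_c0_g1 had 3818 and 3798 in EMS-25, 3791 and 3720 in UV-715, against 3768 and 3697 in wild type. Both EMS-25 libraries stood above the other 4, while UV-715 and wild type overlapped. TRINITY_DN9720_c0_g1 had 2311 and 2382 in EMS-25, 2325 and 2306 in UV-715, against 2325 and 2326 in wild type. Here the EMS-25 libraries were farthest apart and lay on both sides of wild type. TRINITY_DN7175_c0_g1 had 3351 and 3362 in EMS-25, 3254 and 3295 in UV-715, against 3325 and 3283 in wild type. Both EMS-25 libraries were again above the other 4. Across the 214 the median ratio of the highest to the lowest value was 1.14, with quartiles of 1.10 and 1.18. The highest value was less than 10% above the lowest for 53 and less than 5% above it for 9.

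**Figure D2:**
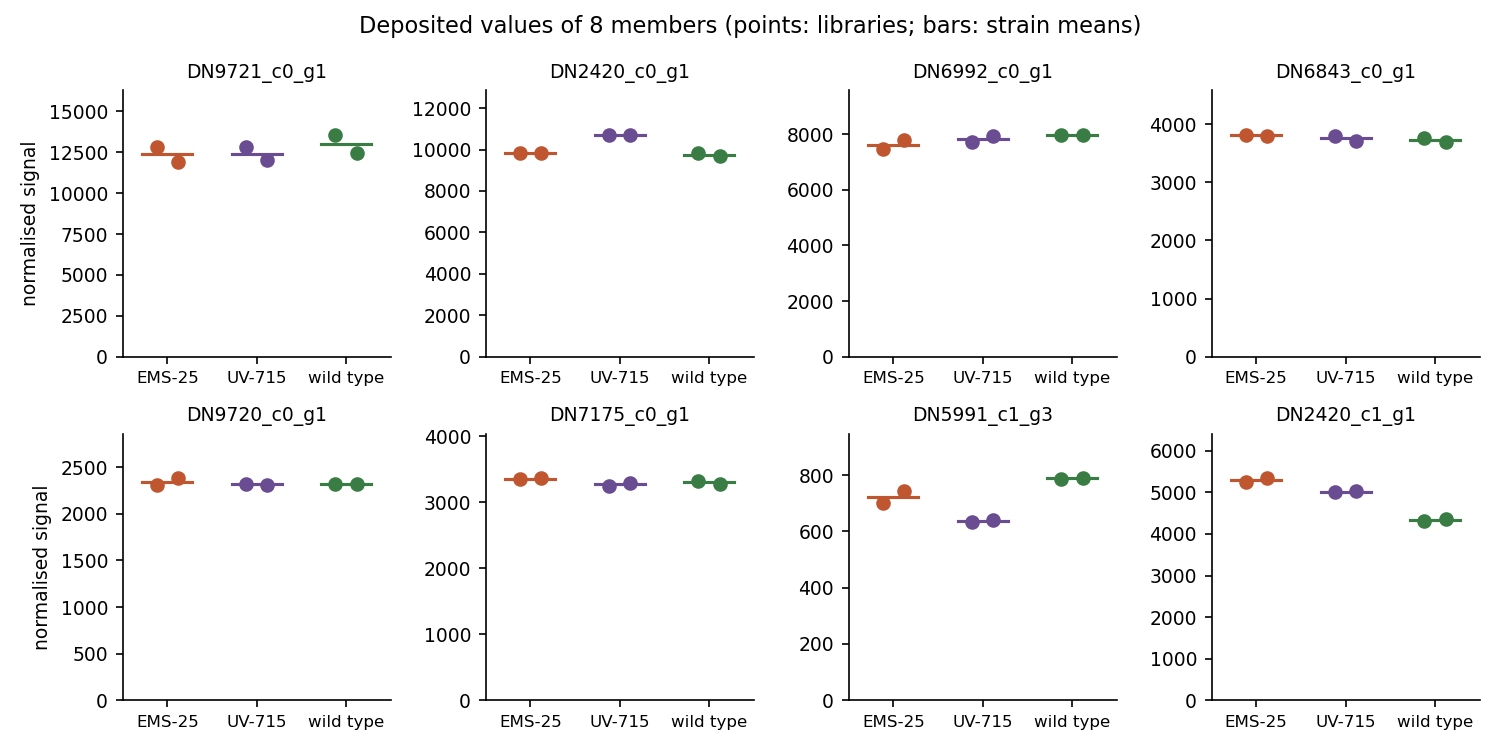
Deposited values (y, normalised signal, from 0) of 8 narrow-range transcripts in the libraries of EMS-25, UV-715 and wild type: the 3 of highest mean, the 3 of narrowest range, and the one of smallest p for each mutant against wild type. Points are libraries, with replicate 1 on the left, and bars strain means; in DN5991_c1_g3 and DN2420_c1_g1 wild type stands apart from both mutants.

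At the edges of the rule the margins were small. TRINITY_DN8789_c0_g1, just inside the range limit with a ratio of 1.246, had 1617 and 1548 in EMS-25, 1315 and 1298 in UV-715, against 1509 and 1458 in wild type. TRINITY_DN2004_c0_g1, just outside with 1.251, had 355 and 314 in EMS-25, 290 and 284 in UV-715, against 347 and 327 in wild type. In both, the UV-715 libraries were the lowest. TRINITY_DN8018_c0_g1 had the lowest mean inside the rule (300.3), and TRINITY_DN9762_c0_g1, with a ratio of 1.09, had the highest mean left out by the level limit alone (299.7).

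A larger share of transcripts had a narrow range at higher levels. All 6 libraries lay within 25% for 30.0% of 1140 transcripts with a mean of 100 to 300, for 36.2% of 240 at 300 to 600, for 37.1% of 116 at 600 to 1200, for 67.2% of 58 at 1200 to 2400 and for 80.4% of 56 at 2400 or more. These classes were set after the values had been seen. Replicates also lay closer at higher levels: the median of the widest replicate ratio of the 3 strains was 1.09 at 300 to 600 and 1.04 at 2400 or more. The median ratio of the highest to the lowest strain mean was 1.23, 1.26, 1.10 and 1.06 in the 4 classes from 300 upward. Among the narrow-range transcripts alone the median ratio over the 6 libraries was 1.16 at 300 to 600, 1.15 at 600 to 1200, 1.11 at 1200 to 2400 and 1.09 at 2400 or more.

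**Figure D3:**
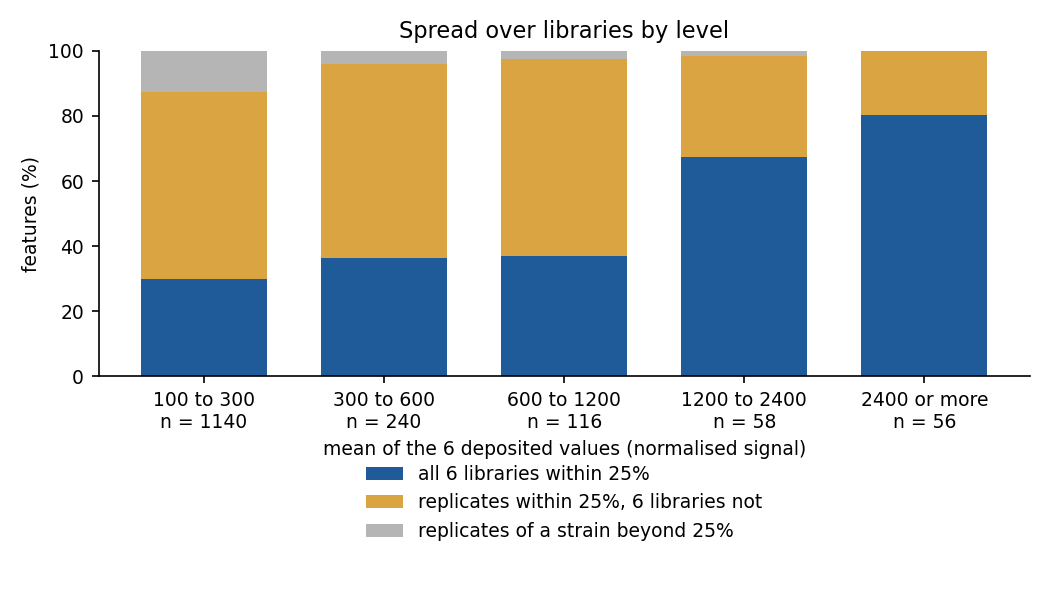
Percent of transcripts (y) in 5 classes of mean level (x, normalised signal), divided into those with all 6 libraries within 25%, those whose replicates were within 25% in every strain while the 6 libraries were not, and those with replicates of a strain beyond 25%. The share of the first kind is 36.2% at 300 to 600 and 80.4% at 2400 or more, and that of the last is at most 4.17% from 300 upward.

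The wide-range transcripts went past the range limit mostly between strains and seldom between replicates. Of these 256, the replicates lay within 25% in every strain for 242 (94.5%), and the strain means alone were 25% or more apart for 199. The median of the widest replicate ratio was 1.06 in the narrow-range and 1.08 in the wide-range transcripts. The median ratio of the highest to the lowest strain mean was 1.09 in the narrow-range and 1.36 in the wide-range transcripts. The sets were split by the range of these same values, so this contrast is built in and nothing is read from it. A range over all libraries can also pass the limit more easily than a ratio of replicates. The counts of wide-range transcripts are therefore a description.

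The rule bounds the range of a transcript and leaves room for strains to separate within it. Both libraries of one strain lay beyond both of another in at least 1 of the 3 comparisons for 187 of the 214 (87.4%), where 73.9% of all transcripts tested did. They did so in all 3 comparisons for 58 (27.1%, with 16.2% of all). Both EMS-25 libraries lay beyond both of wild type for 133 of the narrow-range transcripts (62.1%), where 42.3% of all transcripts tested did. The count was 124 for UV-715 and wild type (57.9%, with 50.1% of all) and 141 for EMS-25 and UV-715 (65.9%, with 50.6% of all). Because the rule used these contrasts, nothing is read from the counts.

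A limma model (a linear model of log2(value + 1) with moderated variance) was fitted over all 18096 transcripts that passed a filter on low values. At a Benjamini-Hochberg adjusted p under 0.05 it called 8 of the 214 for UV-715 against wild type (2 higher, 6 lower), where 4.21% of all transcripts were called (1.87% higher, 2.34% lower). For EMS-25 against wild type it called 1 (higher), with 1.15% of all (0.779% higher, 0.37% lower). For EMS-25 against UV-715 it called 6 (5 higher, 1 lower), with 4.65% of all (2.77% higher, 1.88% lower). These were 14 different transcripts. The rule limits the differences that could be called, so the counts are a description. Among the wide-range transcripts 141, 62 and 140 were called in the same 3 comparisons. Without any 1 of the 6 libraries, 0 or 1 of the 214 were called for UV-715 against wild type and 0 for EMS-25. Between the mutants 0 were called without any 1 of the 4 mutant libraries, and 4 without either wild-type library.

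TRINITY_DN5991_c1_g3 was the narrow-range transcript of smallest p for UV-715 against wild type. It had 699 and 742 in EMS-25, 633 and 639 in UV-715, against 788 in both wild-type libraries. Both UV-715 libraries were the lowest of the 6, at 0.807 times the wild-type mean (log2 fold change -0.31, SE 0.04). TRINITY_DN2420_c1_g1 was the only one called for EMS-25 against wild type and was also called for UV-715. It had 5250 and 5339 in EMS-25, 4999 and 5028 in UV-715, against 4315 and 4369 in wild type. All 4 mutant libraries stood above both of wild type, EMS-25 by 1.22-fold and UV-715 by 1.15-fold. TRINITY_DN2420_c0_g1 of the same cluster, described above, was in EMS-25 at 1.01 times the wild-type mean. The transcript of smallest p between the mutants had 2757 and 2676 in EMS-25, against 2233 and 2279 in UV-715 (log2 fold change 0.27, SE 0.04). Its wild-type values of 2544 and 2473 lay between those of the mutants.

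The SE of a log2 fold change had a median of 0.05 over the 214 (0.03 to 0.10), and the 95% interval reached 0.12 to either side at the median. The rule limits the spread of the replicates too, so these errors are a description. The smallest difference called among the 470 transcripts at this level was 1.15-fold for UV-715 and 1.21-fold for EMS-25, each against wild type, and 1.14-fold between the mutants. These are the smallest differences called and set no limit for the other transcripts. A narrow-range transcript without a call may still differ between strains by as much or more.

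Log2 fold changes of the narrow-range transcripts centred near 0, which the rule largely brings about, since it bounds each difference between strains. These fold changes are therefore a description. Their median was -0.02 for UV-715 against wild type (range -0.31 to 0.22), 0.03 for EMS-25 against wild type (-0.21 to 0.29) and 0.06 for EMS-25 against UV-715 (-0.26 to 0.28). Over all transcripts tested the medians were 0.03, 0.01 and -0.01. Each pair of comparisons shares the libraries of a strain, so the values are given side by side only.

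How often each strain held the highest library of a narrow-range transcript depended on the scaling. Under each scaling EMS-25 held it most often and UV-715 least often, by margins that differed. With the deposited values the highest library was of EMS-25 in 107 cases and of UV-715 in 38, against wild type in 69. The lowest library was of EMS-25 in 37 cases and of UV-715 in 96, against wild type in 81. The median of the values over the transcripts' own means was 1.02 and 1.01 in EMS-25, 0.99 and 0.98 in UV-715, against 1.01 and 0.99 in wild type. The highest sum of signal was that of EMS-25 replicate 1 (1029717), and the lowest that of UV-715 replicate 2 (970974). With all libraries brought to 1 sum, the highest library was of EMS-25 in 80 cases and of UV-715 in 64, against wild type in 70, and the medians lay between 0.99 and 1.01. With median-ratio size factors it was of EMS-25 in 113 cases and of UV-715 in 25, against wild type in 76. The lowest library was of EMS-25 in 63 cases and of UV-715 in 67, against wild type in 84, at 1 sum, and of EMS-25 in 37 and of UV-715 in 108, against wild type in 69, with the size factors.

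**Figure D4:**
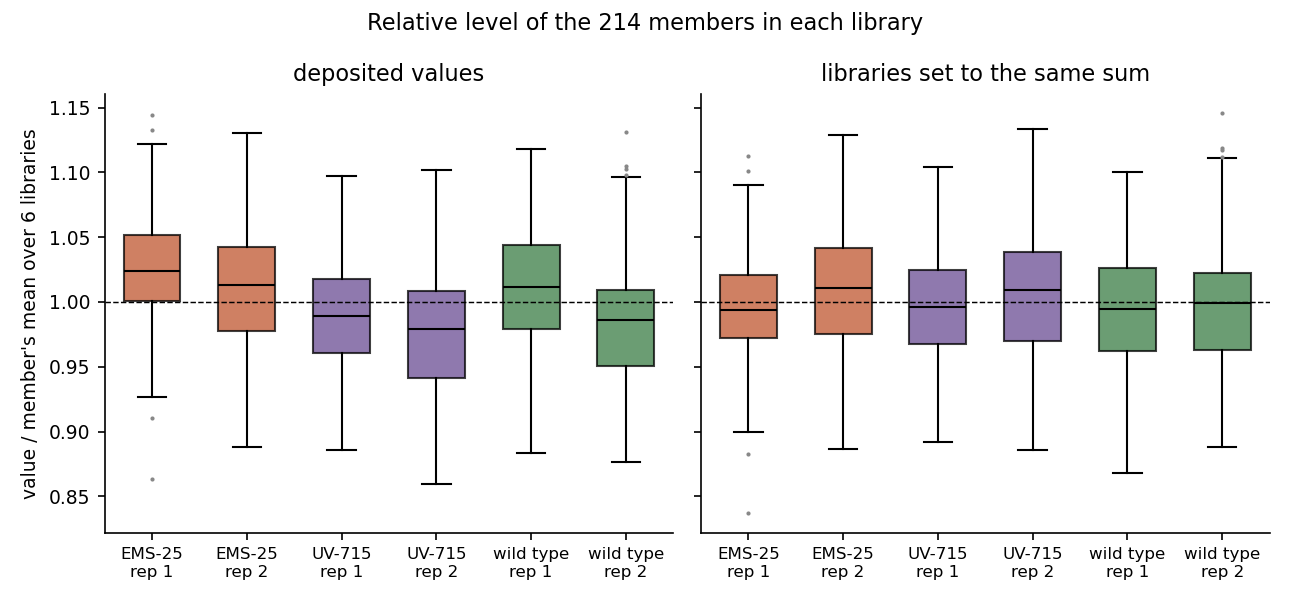
Value over the transcript's own mean of the 6 libraries (y) for the 214 narrow-range transcripts in each library (x), as deposited (left) and with all libraries brought to 1 sum (right). Boxes span the quartiles with the median as a line, whiskers reach 1.5 times the box, and dots are transcripts beyond; the deposited medians run from 0.98 to 1.02 and those at 1 sum from 0.99 to 1.01.

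Replicates of a strain often differed in the same direction. Replicate 1 was above replicate 2 for 138 of the 214 in EMS-25 and for 131 in UV-715, against 151 in wild type, and in all 3 strains for 74. The median ratio of replicate 2 to replicate 1 was 0.986 for EMS-25 and 0.987 for UV-715, against 0.974 for wild type. With libraries at 1 sum, replicate 1 was above in all 3 strains for 31 transcripts and replicate 2 for 61. Replicate 2 was the shallower library of every strain, and its part in this was not tested.

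The strains were ordered in every possible way. From high to low, the order of the strain means in the deposited values was EMS-25, wild type, UV-715 for 61 transcripts, EMS-25, UV-715, wild type for 49 and wild type, EMS-25, UV-715 for 47. Each of the 3 other orders held 18 to 20. With libraries at 1 sum the 6 orders held 29 to 43 each.

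In the assembly the narrow-range transcripts mostly stood alone, a property that the rule did not use. Of the 214, 190 (88.8%) were the only gene of their component, against 206 of the 256 wide-range transcripts (80.5%) and 69.8% of all 18600. Their cluster held no other gene in 159 cases (74.3%), against 58.6% of the wide-range transcripts and 39.9% of all. These shares are a description, and the level of the transcripts, which differs between the 3 sets, was not taken into account. The 214 lay in 212 components and 209 clusters. There were 4 clusters with 2 or more of them, 9 transcripts in all, and 1 component, DN5791_c1, held 3.

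The 3 narrow-range transcripts of that component had replicate 1 above replicate 2 in every strain. TRINITY_DN5791_c1_g2 had 1586 and 1495 in EMS-25, 1525 and 1477 in UV-715, against 1580 and 1509 in wild type. TRINITY_DN5791_c1_g3 had 1392 and 1336 in EMS-25, 1319 and 1232 in UV-715, against 1352 and 1310 in wild type. TRINITY_DN5791_c1_g1 had 947 and 836 in EMS-25, 904 and 884 in UV-715, against 907 and 885 in wild type. EMS-25 and UV-715 each overlapped with wild type in all 3, and with each other in all but TRINITY_DN5791_c1_g3. Genes of a component share assembled sequence, so reads may be divided between them and they are not independent.

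Beside 21 of the narrow-range transcripts sat 30 other genes of the same component, most of them low, with a median level of 48.0. Of the 30, 1 had all 6 libraries within 25%. The 2 with a mean of at least 300 had missed the rule on their range alone, so their values are given without a test. In component DN5456_c0, the narrow-range transcript had 342 and 336 in EMS-25, 343 and 331 in UV-715, against 341 and 330 in wild type. Its neighbour had 763 and 744 in EMS-25, 540 and 544 in UV-715, against 528 and 533 in wild type. All 3 strains overlapped in the first, and both EMS-25 libraries stood far above the other 4 in the second. In component DN10752_c0, the narrow-range transcript had 578 and 537 in EMS-25, 541 and 505 in UV-715, against 518 and 497 in wild type. Its neighbour had 755 and 762 in EMS-25, 523 and 555 in UV-715, against 633 and 618 in wild type. The neighbour separated all 3 strains, while the narrow-range transcript separated only EMS-25 from wild type.

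Of the 28 neighbours with a mean under 300, which the level limit kept out whatever their range, 25 passed the filter on low values (at least 1 in at least 2 libraries). For UV-715 against wild type limma called 5 of the 25 (3 higher, 2 lower), or 20%, with 4.21% of all transcripts called. For EMS-25 against wild type it called 1 (lower), or 4%, with 1.15% of all, and for EMS-25 against UV-715 4 (1 higher, 3 lower), or 16%, with 4.65% of all. Their median log2 fold changes were -0.01, -0.08 and 0.05 in the same 3 comparisons. The level of these neighbours was not taken into account in setting them beside all transcripts. TRINITY_DN6120_c6_g1 (lower) and TRINITY_DN6120_c6_g2 (higher), both called for UV-715 against wild type, are genes of 1 component and not independent. Without any 1 library the first count was 0 to 2 and the second 0. Between the mutants the count was 1 or 2 without any 1 of the mutant libraries, and 4 without either wild-type library. Without limma's intensity trend 0 were called in each comparison, and for UV-715 against wild type 2 were called with no filter or in a fit of those strains alone.

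The highest of the called neighbours under 300, TRINITY_DN6126_c2_g2, had 201 and 198 in EMS-25, 285 and 276 in UV-715, against 231 and 224 in wild type. Both UV-715 libraries were the highest and both EMS-25 libraries the lowest. It was higher in UV-715 than in wild type (log2 fold change 0.30, SE 0.05, limma adjusted p 0.0264) and lower in EMS-25 than in UV-715 (log2 fold change -0.49, SE 0.05, limma adjusted p 0.00539). The difference of EMS-25 from wild type did not pass (log2 fold change -0.19, limma adjusted p 0.171). The call for UV-715 against wild type was lost without any 1 of the 6 libraries (log2 fold change 0.28 to 0.32, limma adjusted p 0.0598 to 0.148). It was also lost with no intensity trend (limma adjusted p 0.342) or with only those strains fitted (limma adjusted p 0.0667). The call between the mutants was lost without EMS-25 replicate 2 (limma adjusted p 0.0533) and without the intensity trend (limma adjusted p 0.208). The narrow-range transcript of its component had 326 and 305 in EMS-25, 318 and 319 in UV-715, against 343 and 316 in wild type, and all 3 strains overlapped.

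TRINITY_DN6042_c0_g3 was the only neighbour under 300 called for EMS-25 against wild type. It was listed at 0 in both EMS-25 libraries and had 8.48 and 20.6 in UV-715, against 22.1 and 20.1 in wild type (limma adjusted p 0.035 for EMS-25 against wild type and 0.0226 for EMS-25 against UV-715). The EMS-25 libraries listed 1485 and 3204 of all transcripts at 0. Both calls were lost without any 1 of the 6 libraries (limma adjusted p 0.0545 to 0.208), without the intensity trend (0.0865 against wild type and 0.0552 against UV-715) and in fits of 2 strains alone (0.12 against wild type and 0.0797 against UV-715). The call against wild type was also lost with no filter (limma adjusted p 0.0603). The narrow-range transcript of the component had 320 and 341 in EMS-25, 325 and 302 in UV-715, against 349 and 353 in wild type, where it was higher than in the other 4 libraries.

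**Figure D5:**
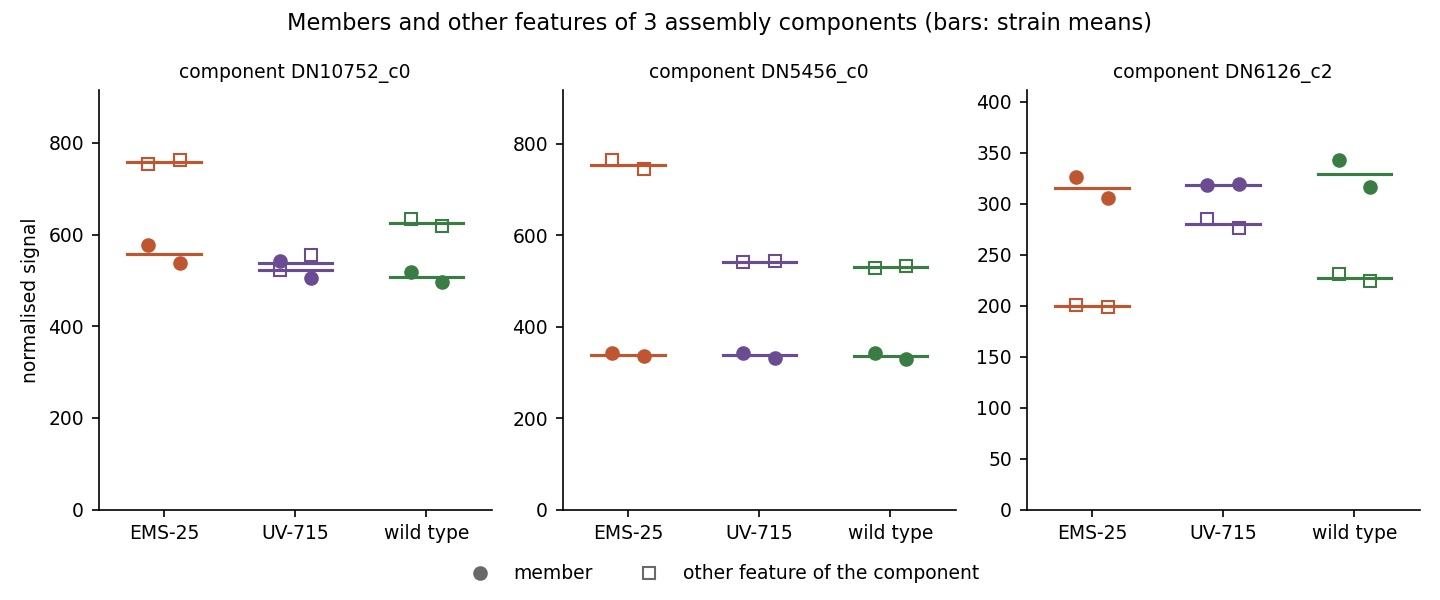
Deposited values (y, normalised signal, from 0) of the narrow-range transcript (filled circles, labelled member) and another gene of its component (open squares) in EMS-25, UV-715 and wild type, for 3 components. Points are libraries and bars strain means; in DN5456_c0 the circles stay between 330 and 343 while the squares reach 763 in EMS-25.

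Summing a component joins reads that the assembly divided. Of the 22 components that held a narrow-range transcript and another gene, the sum stayed within 25% for 17. The sum passed the limit for 5, among them DN10752_c0 with sums of 1333 and 1299 in EMS-25, 1064 and 1060 in UV-715, against 1151 and 1116 in wild type. Both EMS-25 libraries were above the other 4. Over all 212 components the sum stayed within the limit for 207.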

How the data were processed

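The authors deposited 1 table of normalised signal for 6 libraries (EMS-25, UV-715 and wild type, 2 each, grouped by their titles). FastQC 0.11.5, Trimmomatic 0.32, RSEM and edgeR were used, per the submitters' processing notes; their roles, the assembly and its annotation are not stated in the sources used here. From the values (3 decimals, a geometric mean of the library sums of 1000000) the table was taken as TPM times a factor per library, so no count model was run. Relative depth was the most frequent ratio of low values to those of wild type replicate 1. The filter asked for 2 libraries at 1 or more (18096 transcripts passed, 504 did not, and all 214 narrow-range ones passed). Then log2(value + 1) was fitted by limma 3.58.1 in R 4.3.3 on strain, with an intensity trend (residual degrees of freedom 3, prior 2.66), two-sided, with Benjamini-Hochberg adjustment over all that passed. Fold changes are on the scale of value plus 1, which understates low transcripts. The fit was also run on simulated data, with libraries drawn independently and changes larger than any among the narrow-range transcripts. That run does not bear on differences as small as theirs. Other steps used Python 3.11.15, numpy 2.4.6, pandas 2.3.3 and matplotlib 3.10.9.

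The rule, the lists and the tests were chosen with earlier results of these data known. By rule, the text names the 3 narrow-range transcripts of highest mean, the 3 of narrowest range, those nearest each limit, that of smallest p per comparison, and per comparison the called gene of highest mean in their components. The split of these genes at a mean of 300 and the component DN5791_c1 were chosen after the values had been seen.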

Additional observations from a re-analysis of the deposited data

Results flagged for a closer look

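In the limma comparison of EMS-25 with UV-715, 2 named genes beside narrow-range transcripts passed the threshold, and neither call held in all 14 alternatives. TRINITY_DN6126_c2_g2 was lower in EMS-25 than in UV-715 (limma adjusted p 0.00539), a call lost in 2 of them. TRINITY_DN6042_c0_g3 was listed at 0 in EMS-25 and not in UV-715 (limma adjusted p 0.0226), a call lost in 8 of them.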

How the results depend on the processing

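The number of transcripts that met the rule stayed within 1.5 times 214 in 15 of 16 alternatives. It was 299 with a lowest mean of 200, 174 and 251 with ratios of 1.2 and 1.3, 237 with libraries at 1 sum and 217 with median-ratio size factors (207 of the 214 in each), 230 over component sums, 271 over strain means, 225 to 238 without 1 library, and, chosen after seeing the data, 276 and 262 from the replicate 1 and the replicate 2 libraries alone; fewer values make the rule easier to meet. With a lowest mean of 500 it was 139. The share of signal was 27.6% to 33.2% over 6 of these.

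Of all transcripts, limma called 762 for UV-715 against wild type, 208 for EMS-25 against wild type and 841 for EMS-25 against UV-715. Without the intensity trend these counts were 170, 58 and 252, and in fits of 2 strains alone 489 and 85 against wild type. Without 1 library they were 200 to 619, 22 to 144 and 245 to 743, with the filter applied anew and a strain of 1 library assumed to vary like the others. Among the narrow-range transcripts 0 were called without the trend in each comparison, 2 for UV-715 with a pseudocount of 0.1 or no filter, and 12 between the mutants with median-ratio size factors. The replicate block gave 658, 172 and 712 calls, with 12, 1 and 8 among the narrow-range transcripts and 6, 0 and 3 among neighbours under 300. Replicate numbers were not taken as pairs, since the labels do not say what they mark. Replicate differences correlated between strains by 0.04 to 0.07 over all transcripts tested. The correlation was 0.345 to 0.429 over the 1610 transcripts with a mean of at least 100. This set is wider than the narrow-range transcripts, for which no correlation was computed. Under the block TRINITY_DN6042_c0_g3 lost its call against wild type (limma adjusted p 0.0706), and the 3 other calls of named neighbours under 300 held. The share within 25% was 78.6% to 82.1% at 2400 or more and 38.3% to 55.3% at 300 to 600 over 10 alternatives. The causes were not tested.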
